A study of Rattus norvegicus with 9 samples.

Results

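The genes of the unfolded protein response and of its ATF4 arm were followed in rat pancreatic stellate cells kept on 3 culture surfaces. They are 35 genes listed by name, in 4 groups by role: 14 chaperones and folding enzymes of the endoplasmic reticulum (ER), 4 genes of ER-associated degradation, the 3 stress sensors with the transcription factor Xbp1, and 13 genes of the ATF4 arm. Of the 35, 32 had an array entry paired with their symbol alone and were measured, among 14506 genes tested in all. Edem1, Ern1 and Sesn2 had no such entry and were not analysed here.

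Pancreatic stellate cells are the fibroblast-like, collagen-producing cells of the pancreas. In this study they were isolated from male Sprague Dawley rats on a density gradient, and seeded in 10 cm dishes in medium with 10% foetal bovine serum and cultured for 72 hours. The surface was uncoated plastic (4 arrays), collagen I (3 arrays) or Matrigel (2 arrays), a gel made from basement membrane proteins. Total RNA of the whole dish was hybridised to Affymetrix Rat Gene 1.0 ST arrays, and the question of the design is how the surface alters gene expression. No genetic change or drug distinguished the groups, and the surface is the only difference in treatment that the labels give. The sample titles carry a letter, A, P, S or Z, whose meaning is not given in the sources used here. Plastic held all of these letters, collagen I held A, P and Z, and Matrigel held A and S, so letter and surface are partly confounded. No label says that arrays of a group came from separate animals. Each p-value thus reflects how far these arrays spread and perhaps no more than technical variation.

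When unfolded proteins build up in the ER, 3 membrane sensors respond: the kinase PERK (gene Eif2ak3), the nuclease IRE1 (Ern1), which splices Xbp1 RNA, and the transcription factor ATF6. ATF6 and spliced XBP1 raise the genes of ER chaperones and of ER-associated degradation, while PERK phosphorylates the translation factor eIF2alpha and so favours translation of ATF4. ATF4 is also raised by GCN2 when amino acids are short, without any ER stress, and its targets make amino acids, import them and load them onto tRNA. Stellate cells secrete large amounts of collagen, and the ER of such cells carries a heavy folding load. ATF4, PERK, IRE1 and eIF2alpha are regulated mostly at the level of protein, which arrays do not measure, and the entries used here do not tell spliced from unspliced Xbp1.

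The groups also differ in promoter sequence, which is shown as a description and uses no expression value. The members were listed by their role in this response. An element of the same response among them is thus no independent evidence that the groups are separate. RefSeq windows from 250 bases before to 50 bases after the transcription start (rat assembly GRCr8) were available for 30 of the 35 members and for 27457 genes in all. The ER stress response element ERSE was searched as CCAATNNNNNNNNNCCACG on both strands, a spacing at which NF-Y and ATF6 are known to bind. It was found in 21 of the 27457 genes (0.0765%), and in 6 of the 11 chaperone genes with a window (54.5%). Xbp1 also held it, and none of the 13 genes of the ATF4 arm did. The matches are printed with 10 bases on each side and the element in capitals, read along the element for Hspa5 (chr3:38452963-38453001, plus strand), the first of 2 in Hsp90b1 (chr7:23012441-23012479, minus strand), Calr (chr19:40213125-40213163, minus strand), Dnajc3 (chr15:102432524-102432562, plus strand) and Xbp1 (chr14:84604548-84604586, plus strand).
Hspa5: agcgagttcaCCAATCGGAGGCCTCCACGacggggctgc
Hsp90b1: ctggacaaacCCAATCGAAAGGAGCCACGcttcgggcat
Calr: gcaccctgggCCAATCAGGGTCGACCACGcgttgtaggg
Dnajc3: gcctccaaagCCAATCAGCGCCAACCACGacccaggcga
Xbp1: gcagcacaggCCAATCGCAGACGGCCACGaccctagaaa

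The remaining matches lay in Canx and Creld2. The element that binds ATF4 with a C/EBP partner was searched as TGATGNAAT and, allowing any last base, as TGATGNAAN, which contains the first form. The strict form was in the window of 0 of 30 members and of 1.14% of all genes. The looser form was in 3 of 30 members (10.0%), Chac1, Trib3 and Herpud1, against 4.14% of all genes. Among further genes of amino acid supply it was more frequent. It was in 7 of 17 genes of a list of cytosolic aminoacyl-tRNA synthetases (41.2%), which also holds the tRNA exporter gene Xpot. It was in 5 of 15 other amino acid synthesis and transport genes (33.3%). The examples shown are Chac1 (chr3:126795953-126795981, minus strand), Trib3 (chr3:161275537-161275565, plus strand) and the arginine transporter gene Slc7a1 (chr12:11664448-11664476, plus strand).
Chac1: ctagcaggagTGATGCAACggcggagaag
Trib3: cccgcccggcTGATGTAAAcctgagctaa
Slc7a1: ggcgcgcggcTGATGAAACcggctcggat
A match describes letters in this window and shows no binding, and where no match was found, as for Asns or Psat1, elements outside the window were not searched.

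Values are log2 expression levels, so a difference of 1 is a 2-fold change, and levels of different genes cannot be set against each other. A gene passed the test at an adjusted p under 0.05 in limma's moderated test, adjusted over all 14506 genes. By this test 888 genes (6.12%) differed between collagen I and plastic, 1504 (10.4%) between Matrigel and plastic and 387 (2.67%) between Matrigel and collagen I. The 3 comparisons share arrays, so they are not independent of each other. The small number of arrays, above all the 2 on Matrigel, limits the precision. Because RNA came from whole dishes, fewer cells of a type and less RNA per cell cannot be told apart.

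The label of the cells was checked against 12 stellate cell markers, of which 11 were measured. The intermediate filament Vim lay between 12.09 and 12.68, the collagen chain Col1a1 between 12.45 and 12.95 and the smooth muscle actin Acta2 between 8.95 and 11.33 over the 9 arrays. Gfap, a marker of quiescent stellate cells, lay between 2.45 and 2.90, under the 40th percentile of gene levels (4.25), on every array. As a list the stellate markers were lower on Matrigel: their summed level was 100.3 and 102.6 there, 104.1 to 107.1 on collagen I and 106.6 to 108.2 on plastic. Against plastic 9 of the 11 lay below 0 with a median of -0.36, and 2 of the 11 fell (18.2%, background for falls 5.85%). The muscle filament Des, a stellate cell marker, fell from 6.65 to 6.89 on plastic to 4.85 and 4.83 on Matrigel (-1.93 ± 0.13, adjusted p = 0.000208) and to 5.73 to 6.18 on collagen I (-0.77 ± 0.12, adjusted p = 0.00580). The retinoid-storing enzyme Lrat differed by -1.67 ± 0.60 on collagen I and -0.78 ± 0.68 on Matrigel (adjusted p = 0.168 and 0.567). Some islet and macrophage markers were well above 4.25 on every array, plastic included. Ins1 lay between 8.92 and 12.17, Gcg between 7.92 and 11.49 and the macrophage marker Cd14 between 9.73 and 11.35. Others were not, such as Chga and Slc2a2 of the islet list, which lay under 4.25 on every plastic array. Markers of islet, acinar and macrophage cells were highest on Matrigel. The summed level of 11 islet markers was 89.5 and 75.2 there, against 61.8 to 69.7 on collagen I and 58.3 to 69.2 on plastic. Of the 11, 7 rose against plastic (63.6%, background for rises 4.52%). For 14 acinar markers the sums were 68.3 and 58.4 on Matrigel, 50.4 to 55.9 on collagen I and at most 52.9 on plastic, and 3 of the 14 rose (21.4%). The acinar transcription factors Ptf1a and Bhlha15 stayed under 4.25 on all arrays. Rbpjl, a further transcription factor of the acinar list, lay above that level on every array and was highest on Matrigel. It gave 4.96 to 5.42 on plastic, 5.57 to 5.64 on collagen I and at least 5.71 on Matrigel. For 14 macrophage markers the sums were 108.0 and 113.0 on Matrigel, 88.9 to 103.5 on collagen I and 89.5 to 105.8 on plastic. Against plastic all 14 lay above 0 on Matrigel with a median of 1.02. Only 1 of the 14 rose past the threshold (7.14%), while 8 had an unadjusted p under 0.05 by limma (3503 of all 14506 genes). For 8 duct markers the sums were 31.4 and 26.2 on Matrigel, 25.8 to 26.2 on collagen I and 25.3 to 26.1 on plastic. For 7 endothelial markers they were 27.7 and 26.3 on Matrigel, 26.3 to 27.4 on collagen I and 25.8 to 26.7 on plastic. In each of the islet and acinar lists the higher Matrigel array was Matrigel replicate 1. The part of these lists in the differences between Matrigel and the other surfaces given here was not tested.

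Of the 32 measured members, 6 passed the test in at least 1 comparison and 26 in none. On collagen I against plastic 1 member rose and none fell (3.12% of 32, background 6.12%, or 2.95% for rises and 3.17% for falls). On Matrigel against plastic 5 members passed (15.6%, background 10.4%, or 4.52% for rises and 5.85% for falls): the chaperone gene Dnajb9 rose, and Asns, Psat1, Phgdh and Vldlr of the ATF4 arm fell. On Matrigel against collagen I Asns, Psat1 and Slc7a5 fell (9.38%, background 2.67%, or 1.21% for rises and 1.45% for falls). Calls of at least 2-fold numbered 0, 2 and 2 members in these comparisons, beside 2.18%, 2.97% and 0.676% of all genes. The groups of arrays did not overlap for 9 members on collagen I against plastic (28.1%, against 17.2% of all genes), 14 on Matrigel against plastic (43.8%, against 30.2%) and 19 on Matrigel against collagen I (59.4%, against 29.5%). The median difference of the members was 0.01, -0.17 and -0.14 in these comparisons, beside 0.00, -0.01 and -0.02 for all genes tested.

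**Figure D1:**
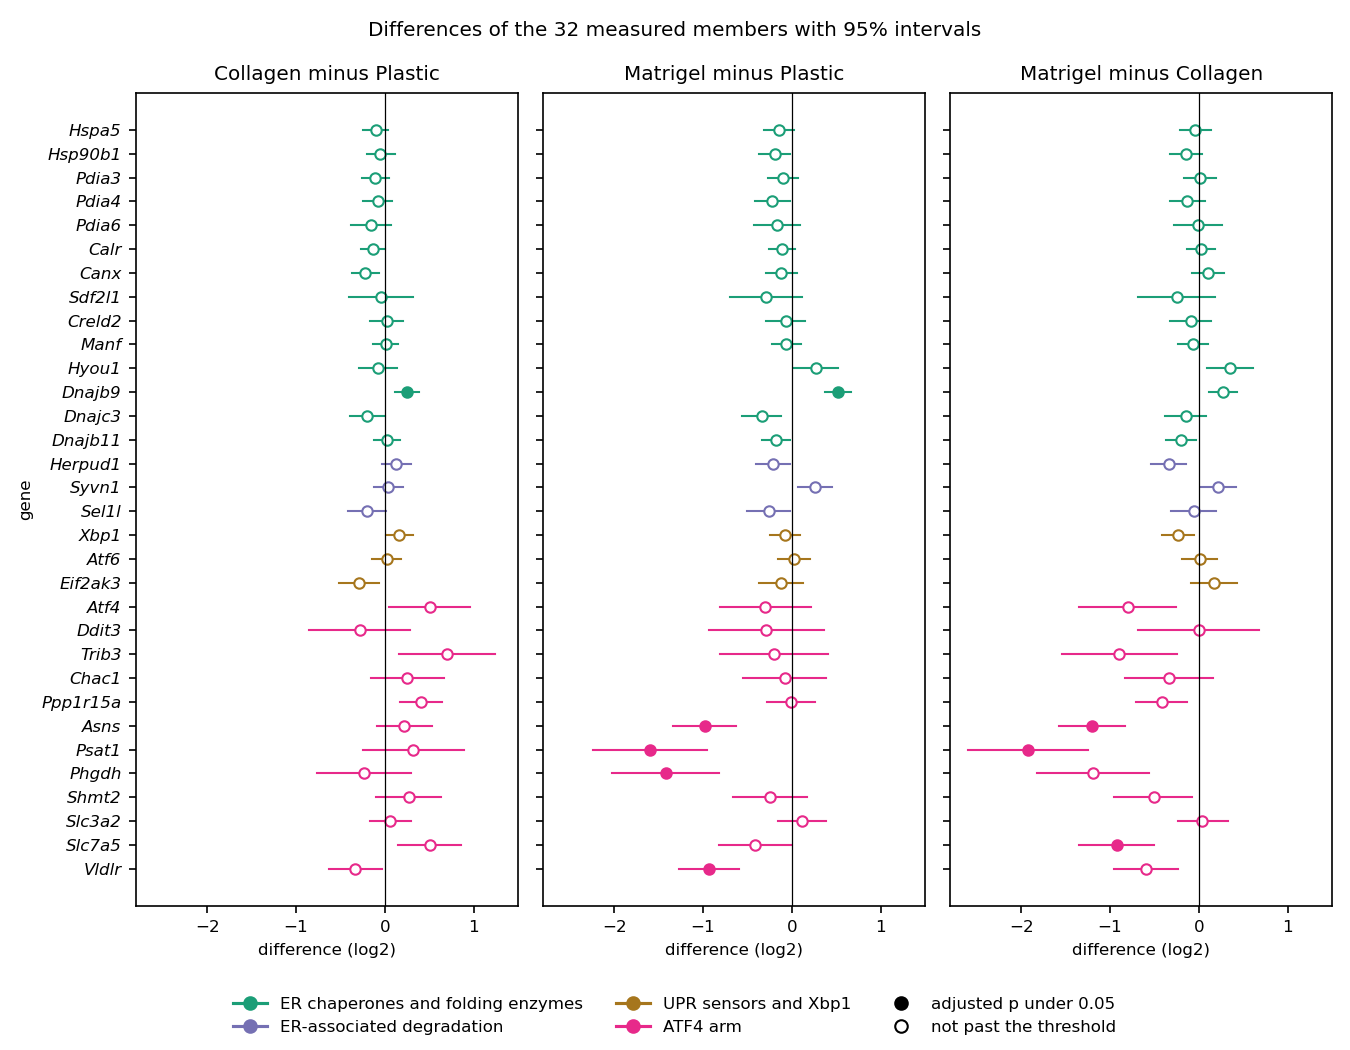
Difference in mean log2 expression for each of the 32 measured members, with its 95% interval, in the 3 comparisons between surfaces; colours mark the role groups and filled points an adjusted p under 0.05 (limma, 4 plastic, 3 collagen I and 2 Matrigel arrays). Apart from Dnajb9 the chaperones lie close to 0, the widest of their intervals being those of Sdf2l1. The filled points below 0 are Asns, Psat1, Phgdh and Vldlr on Matrigel against plastic and Asns, Psat1 and Slc7a5 on Matrigel against collagen I.

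The ER chaperones and folding enzymes held nearly the same level on all surfaces. Of the 14, only Dnajb9 passed the test in any comparison. The other 13 differed from plastic by -0.22 to 0.02 on collagen I and by -0.34 to 0.27 on Matrigel. Their 95% intervals reached at most from -0.40 to 0.32 on collagen I, both ends being those of Sdf2l1, and from -0.70 (Sdf2l1) to 0.52 (Hyou1) on Matrigel, so a 2-fold difference from plastic lay outside the interval of every one of the 13 in both comparisons. The mean level over the 14 was 10.15, 10.00, 10.08 and 10.08 on plastic, 10.01, 10.00 and 10.04 on collagen I and 9.94 and 10.05 on Matrigel. The ranges of the 3 surfaces overlap for this mean over the 14. Gene by gene, the arrays of 8 of the 14 did not overlap between Matrigel and plastic, against 30.2% of all genes. Between collagen I and plastic it was 3 of the 14, against 17.2%. Of the 13 intervals, 5 excluded 0 on Matrigel and 3 on collagen I, both against plastic. The differences that missed the threshold leaned downward on Matrigel, 12 of the 14 chaperones lying below 0 with a median of -0.13.

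Hspa5, which encodes BiP, the main ER chaperone and the usual marker of ER stress, gave 12.21, 12.01, 12.05 and 12.11 on plastic, 11.96, 11.99 and 12.01 on collagen I and 11.92 and 11.99 on Matrigel. The collagen I arrays reached the lowest plastic array and the Matrigel arrays lay just under it. The difference from plastic was -0.10 ± 0.07 (SE, adjusted p = 0.457) on collagen I and -0.14 ± 0.07 (adjusted p = 0.301) on Matrigel, neither past the threshold. Hsp90b1, the ER form of HSP90, gave 12.32, 12.16, 12.21 and 12.17 on plastic, 12.16, 12.15 and 12.19 on collagen I and 11.94 and 12.10 on Matrigel. Its differences were -0.05 ± 0.07 on collagen I (adjusted p = 0.784) and -0.19 ± 0.08 on Matrigel (adjusted p = 0.163).

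The lectin chaperones Canx and Calr, which hold glycoproteins until they are folded, gave differences of -0.22 ± 0.07 and -0.13 ± 0.06 on collagen I. Their adjusted p-values were 0.107 and 0.257. The disulfide isomerases Pdia3, Pdia4 and Pdia6, which form and rearrange disulfide bonds, differed from plastic by -0.08 to -0.15 on collagen I and by -0.10 to -0.22 on Matrigel. Hyou1, the nucleotide exchange factor of BiP, had the highest difference among the 13 on Matrigel, 0.27 ± 0.11 (adjusted p = 0.164). Dnajc3, a BiP co-chaperone that also inhibits PERK, had the lowest there, -0.34 ± 0.10 (adjusted p = 0.0581). All 7 members with an ERSE in their promoter window were measured, and none passed the test, with differences from plastic of -0.22 to 0.16 on collagen I and -0.34 to -0.07 on Matrigel.

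Dnajb9 (ERdj4), a BiP co-chaperone induced through XBP1 that restrains the sensor IRE1, was the exception. It gave 5.86, 5.92, 5.93 and 5.94 on plastic, 6.10, 6.23 and 6.17 on collagen I and 6.47 and 6.41 on Matrigel. The 3 surfaces did not overlap, with plastic lowest and Matrigel highest, and the whole range covered less than 1 on the log2 scale. It was 1.44-fold higher on Matrigel than on plastic (0.52 ± 0.07, adjusted p = 0.00246) and passed the test under all 20 alternative settings. On collagen I it was 1.19-fold higher (0.25 ± 0.06, adjusted p = 0.0410). That second call was lost in 11 of the 20 settings (adjusted p up to 0.146), among them leaving out any single collagen I or plastic array, and with the title letter as a replicate block (0.25, adjusted p = 0.0974). The difference between Matrigel and collagen I was 0.27 ± 0.07 (adjusted p = 0.0899).

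In ER-associated degradation, which returns misfolded proteins to the cytosol for destruction, 0 of 3 measured members passed limma's test on either coating. At an unadjusted p under 0.05 there were 0 on collagen I and 3 on Matrigel, beside 2763 and 3503 of all 14506 genes. Herpud1, an ER membrane protein of the degradation complex, gave 7.53, 7.41, 7.54 and 7.53 on plastic, 7.53, 7.64 and 7.73 on collagen I and 7.37 and 7.22 on Matrigel. Matrigel lay below every other array, with a difference from collagen I of -0.34 ± 0.09 (adjusted p = 0.0864). The ubiquitin ligase Syvn1 (HRD1) and its partner Sel1l differed from plastic on Matrigel by 0.26 ± 0.08 (adjusted p = 0.0860) and -0.26 ± 0.10 (adjusted p = 0.167), in opposite directions.

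The sensors and Xbp1 did not pass the test on any surface. At an unadjusted p under 0.05 by limma there were 2, 0 and 1 of the 3 in collagen I against plastic, Matrigel against plastic and Matrigel against collagen I. Of all 14506 genes, 2763, 3503 and 2456 were under it in these comparisons. Xbp1 gave 9.68, 9.63, 9.69 and 9.75 on plastic, 9.84, 9.83 and 9.88 on collagen I and 9.51 and 9.71 on Matrigel. The collagen I arrays were above all others, by 0.16 ± 0.07 over plastic (adjusted p = 0.221). Atf6 gave 8.23, 8.21, 8.23 and 8.23 on plastic, 8.23, 8.13 and 8.37 on collagen I and 8.31 and 8.19 on Matrigel, and its interval against plastic ran from -0.14 to 0.18 on collagen I and from -0.16 to 0.21 on Matrigel.

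Eif2ak3, the PERK gene, gave 7.64, 7.39, 7.49 and 7.45 on plastic, 7.25, 7.01 and 7.34 on collagen I and 7.32 and 7.42 on Matrigel. Collagen I lay below plastic without overlap (-0.29 ± 0.10, adjusted p = 0.133), the opposite side from Atf4 on the same surface.

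The ATF4 arm held 5 of the 6 members that passed the test. Of its 12 measured members, 0 passed the test on collagen I against plastic, 4 fell on Matrigel against plastic (33.3%, background for falls 5.85%) and 3 fell on Matrigel against collagen I (25.0%, background 1.45%). Fold differences among the calls ran from 1.89 to 3.79. The median difference of the 12 was 0.26 on collagen I and -0.29 on Matrigel, both against plastic. For 8 of the 12 members the mean was highest on collagen I, intermediate on plastic and lowest on Matrigel (66.7%), an order that 17.4% of all genes had. This order was also found in 3 of the 14 chaperones, 9 of 19 other ER folding genes (47.4%) and 8 of 18 other amino acid genes (44.4%). It was found in 8 of 20 genes of the tRNA synthetase list too, so it was not confined to this arm. The mean level over the 12 was 7.71, 7.64, 7.91 and 7.70 on plastic, 7.85, 7.84 and 8.13 on collagen I and 7.10 and 7.32 on Matrigel, so the Matrigel arrays were below the rest.

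Atf4 itself, the transcription factor that names the arm, gave 8.93, 8.82, 9.36 and 8.98 on plastic, 9.38, 9.45 and 9.76 on collagen I and 8.34 and 9.12 on Matrigel. All collagen I arrays exceeded all others, though the lowest of them only narrowly exceeded the highest plastic array, which carries the letter S, and the Matrigel arrays lay far apart. The difference from plastic was 0.51 ± 0.20 on collagen I (adjusted p = 0.209) and -0.30 ± 0.23 on Matrigel (adjusted p = 0.501). Within the letters A, P and Z, each present on both surfaces, collagen I exceeded plastic by 0.45, 0.62 and 0.78. With the letter as a fixed replicate block the difference on collagen I was 0.64 ± 0.09 and passed the test (adjusted p = 0.0141). No other alternative setting gave this call, the letter as a random block included.

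Trib3, a pseudokinase induced by ATF4 that in turn restrains it, showed the same order of surfaces: 5.21, 4.63, 5.29 and 5.17 on plastic, 5.59, 5.42 and 6.31 on collagen I and 4.68 and 5.06 on Matrigel. Collagen I was again above all other arrays. The difference from plastic was 0.70 ± 0.24 on collagen I (adjusted p = 0.146) and -0.20 ± 0.27 on Matrigel (adjusted p = 0.730). With the letter as a fixed replicate block it was 0.78 ± 0.14 on collagen I (adjusted p = 0.0272), past the threshold, and within letters 0.38, 0.79 and 1.14. Here too no other alternative setting gave the call.

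Ppp1r15a (GADD34), which directs the phosphatase that removes phosphate from eIF2alpha and so ends the arm's signal, gave 6.81, 6.62, 6.81 and 6.70 on plastic, 6.94, 7.35 and 7.14 on collagen I and 6.64 and 6.81 on Matrigel. Its collagen I arrays also lay above all others, by 0.41 ± 0.11 over plastic (adjusted p = 0.0612, and 0.0909 with the letter as a replicate block). Ddit3, which encodes CHOP, the factor tied to cell death under ER stress, gave 6.22, 5.22, 6.34 and 5.58 on plastic, 5.72, 5.43 and 5.51 on collagen I and 5.52 and 5.58 on Matrigel. Plastic spanned more than both coatings together, the arrays of letters A and S being the high ones, and the differences from plastic were -0.28 ± 0.25 and -0.29 ± 0.28 (adjusted p = 0.616 and 0.618). Chac1, a glutathione-degrading enzyme induced with CHOP, lay between 4.21 and 5.11 over the 9 arrays with overlapping plastic and collagen I arrays.

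**Figure D2:**
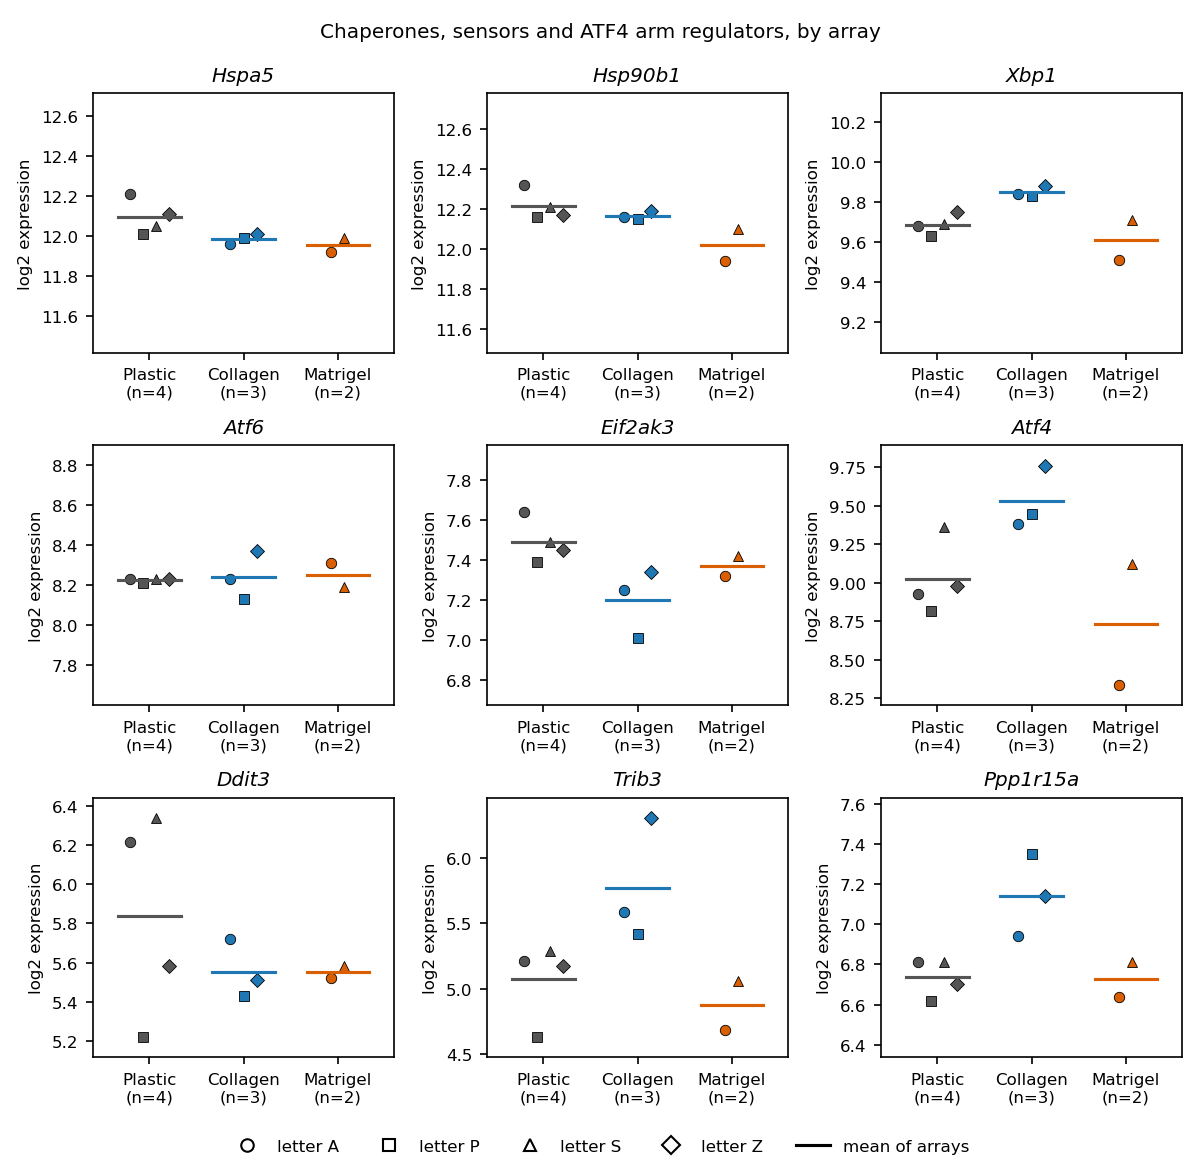
Log2 expression of 2 chaperones, Xbp1, 2 sensors and 4 regulators of the ATF4 arm on each of the 9 arrays, by surface; the shape of a point is the letter in the sample title and each line is the mean of its surface, and the axes of the panels differ in position and length. The collagen I arrays of Xbp1, Atf4, Trib3 and Ppp1r15a lie above all others, while Hspa5 and Atf6 show little spread and Ddit3 is widest on plastic.

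The 4 members that fell on Matrigel against plastic included 3 enzymes that make non-essential amino acids. Asns, asparagine synthetase, gave 7.75, 7.89, 7.95 and 7.71 on plastic, 7.87, 8.06 and 8.18 on collagen I and 6.56 and 7.11 on Matrigel. Both Matrigel arrays were below the other 7. It was 1.98-fold lower on Matrigel than on plastic (-0.98 ± 0.15, adjusted p = 0.00581) and 2.30-fold lower than on collagen I (-1.20 ± 0.16, adjusted p = 0.0138). The fall against plastic passed the test under all 20 alternative settings.

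Psat1, phosphoserine aminotransferase, and Phgdh, phosphoglycerate dehydrogenase, catalyse neighbouring steps of serine synthesis. Psat1 gave 8.61, 9.01, 9.29 and 9.23 on plastic, 9.06, 9.06 and 9.96 on collagen I and 7.28 and 7.59 on Matrigel. The Matrigel arrays lay more than 1 log2 unit below any other array, and Psat1 was 3.04-fold lower than on plastic (-1.60 ± 0.28, adjusted p = 0.00939) and 3.79-fold lower than on collagen I (-1.92 ± 0.30, adjusted p = 0.0177). A second, dimmer entry of Psat1, not used in the test, differed by -0.64 on Matrigel and 0.17 on collagen I. Phgdh gave 6.73, 6.68, 7.23 and 6.60 on plastic, 6.62, 6.52 and 6.60 on collagen I and 4.89 and 5.90 on Matrigel. It was 2.67-fold lower on Matrigel than on plastic (-1.42 ± 0.26, adjusted p = 0.0116), with Matrigel replicate 1 well below replicate 2. Against collagen I the difference was -1.19 ± 0.28 (adjusted p = 0.0641).

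Vldlr, a lipoprotein receptor induced through ATF4 under ER stress, gave 9.22, 9.11, 9.02 and 9.19 on plastic, 8.69, 8.64 and 9.09 on collagen I and 8.01 and 8.40 on Matrigel. It was 1.90-fold lower on Matrigel than on plastic (-0.93 ± 0.15, adjusted p = 0.00655). Like Phgdh, and unlike Asns and Psat1, it had its highest mean on plastic, and collagen I differed from plastic by -0.33 ± 0.13 (adjusted p = 0.216). A fit without either Matrigel replicate leaves a single Matrigel array, which lowers its precision. Without replicate 1, Dnajb9 and Asns still passed against plastic, and Psat1, Phgdh and Vldlr did not. The remaining Matrigel array gave 7.59 for Psat1, 5.90 for Phgdh and 8.40 for Vldlr, each below every plastic array. The difference of Phgdh was -0.92 without replicate 1.

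Slc7a5, the light chain of the LAT1 transporter for large neutral amino acids, gave 8.56, 8.92, 8.77 and 8.80 on plastic, 9.01, 9.26 and 9.52 on collagen I and 8.60 and 8.10 on Matrigel. Collagen I was above every other array, and Slc7a5 was 1.89-fold lower on Matrigel than on collagen I (-0.92 ± 0.19, adjusted p = 0.0425). This call was lost in 12 of the 20 alternative settings (adjusted p up to 0.194). Its heavy chain partner Slc3a2 did not follow: it lay between 10.49 and 10.86 over all arrays, with differences of 0.06 ± 0.10 and 0.11 ± 0.12 from plastic. Shmt2, the mitochondrial enzyme that turns serine into glycine and a one-carbon unit, differed from plastic by 0.27 ± 0.16 on collagen I and -0.25 ± 0.18 on Matrigel (adjusted p = 0.438 and 0.481).

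On Matrigel against collagen I, Asns passed except without collagen I replicate 2 or with only the compared groups in the fit. Psat1 was lost in those settings and also without either Matrigel array. Without collagen I replicate 2 no member passed limma's test. Over all arrays 15 of the 32 had an unadjusted p under 0.05 by limma, beside 2456 of all 14506 genes.

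**Figure D3:**
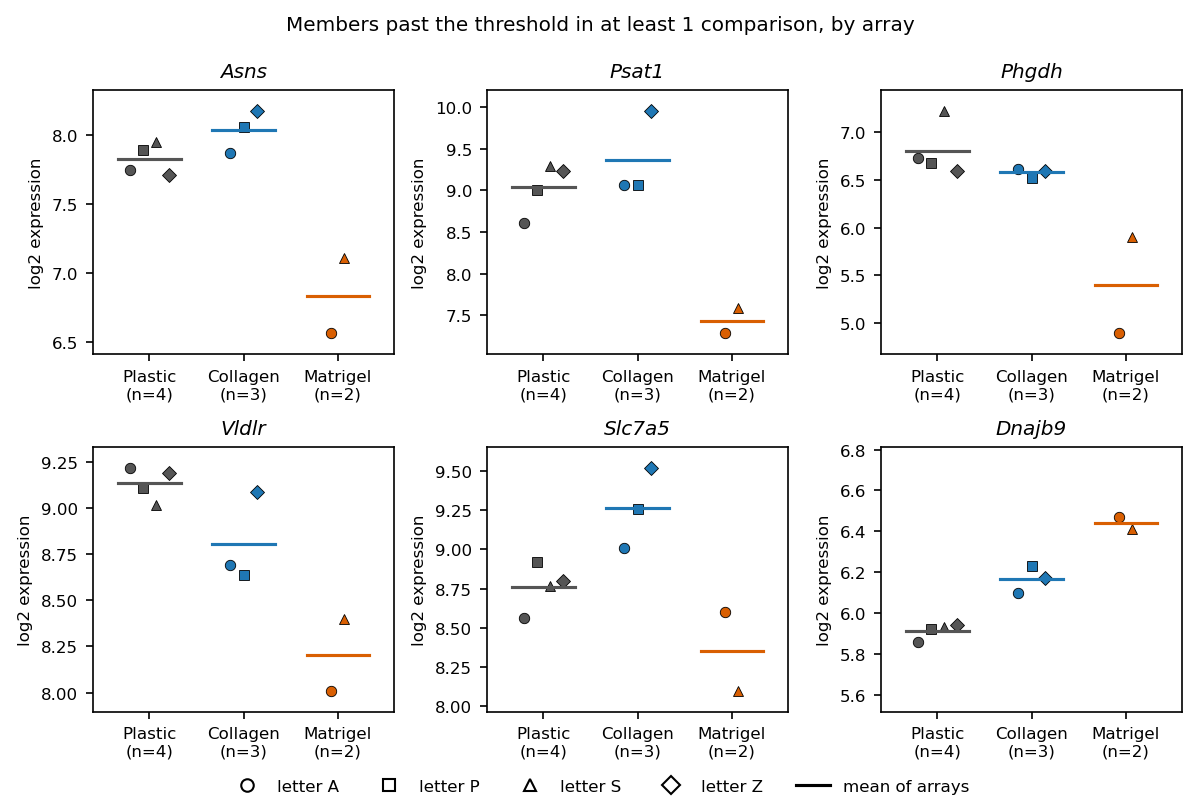
Log2 expression of the 6 members that passed the test in at least 1 comparison on each of the 9 arrays, by surface; the shape of a point is the letter in the sample title and each line is the mean of its surface, and the axes of the panels differ in position and length. Asns, Psat1, Phgdh and Vldlr are lowest on both Matrigel arrays, Slc7a5 is highest on collagen I, and Dnajb9 rises from plastic over collagen I to Matrigel without overlap.

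Further genes of the pathways outside the 35 were read in lists by function. The cytosolic aminoacyl-tRNA synthetases load amino acids onto tRNA, and several are ATF4 targets. Their list of 20 measured genes also counts Xpot, which exports tRNA from the nucleus and is no synthetase. On Matrigel 9 of the 20 passed the test against plastic, all 9 of them synthetases and lower (45.0%, background for falls 5.85%). The median difference of the 20 was -0.29. Xpot gave 9.04 to 9.18 on plastic and 9.17 and 9.15 on Matrigel. On collagen I 0 of 20 passed limma's test, 3 having an unadjusted p under 0.05 (2763 of all 14506 genes), and the median was 0.00. The mean level over the 20 was 8.94, 8.92, 8.93 and 8.97 on plastic, 8.89, 8.91 and 9.05 on collagen I and 8.65 on both Matrigel arrays. The Matrigel arrays were thus below the others by more than the whole range on plastic.

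The glycine enzyme Gars1 gave 11.08, 11.11, 11.09 and 11.10 on plastic and 10.61 and 10.50 on Matrigel (-0.54 ± 0.07, adjusted p = 0.00245). The serine enzyme Sars1 gave 9.60, 9.63, 9.78 and 9.61 on plastic and 8.97 and 9.11 on Matrigel (-0.61 ± 0.08, adjusted p = 0.00258). Both passed under all 20 alternative settings. Yars1 and Rars1, for tyrosine and arginine, fell by 0.65 and 0.47 on the log2 scale and were lost without Matrigel replicate 1 (adjusted p = 0.0666 and 0.0839). The count of 9 was 3 without Matrigel replicate 1, 4 without Matrigel replicate 2, 4 without plastic replicate 1, 6 without plastic replicate 4 and 5 when the arrays were quantile normalized again.

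Other genes of amino acid synthesis and transport moved both ways. On Matrigel against plastic 3 of 18 fell and 1 rose (22.2% in all, background 10.4%). Aldh18a1, which starts proline synthesis from glutamate, gave 9.17, 9.04, 9.20 and 9.18 on plastic, 9.12, 9.13 and 9.29 on collagen I and 8.31 and 8.21 on Matrigel. It was 1.85-fold lower on Matrigel (-0.89 ± 0.08, adjusted p = 0.000643), with no overlap. The neutral amino acid transporter Slc1a4 and the arginine transporter Slc7a1 fell there by 1.22 and 1.13 on the log2 scale (adjusted p = 0.00262 and 0.00821). Slc7a11, the cystine transporter, a target of both ATF4 and NRF2, rose 6.21-fold instead (2.63 ± 0.44, adjusted p = 0.00743), with 6.29, 6.88, 5.87 and 6.36 on plastic and 9.74 and 8.23 on Matrigel. The calls of Slc7a1 and Slc7a11 were lost without Matrigel replicate 1 (adjusted p = 0.0740 and 0.0523). The fold of Slc7a11 was 3.68 without that array and 10.5 without Matrigel replicate 2.

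On collagen I against plastic 2 of these 18 rose and 2 fell (22.2% in all, background 6.12%). Mthfd2, a mitochondrial folate enzyme induced by ATF4, rose by 0.64 (adjusted p = 0.0364) and the transporter Slc38a2 by 0.45 (adjusted p = 0.0298), while Slc1a4 fell by 0.68 and the serine enzyme Psph by 0.36 on the log2 scale (adjusted p = 0.0236 and 0.0251). Each of these 4 calls was lost when 1 of several arrays was left out, with adjusted p-values up to 0.121. With the letter as a replicate block Psph was lost (-0.32, adjusted p = 0.0561) and the other three still passed.

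Among 12 further transcription factors and stress genes linked to ATF4, 2 rose and 1 fell on collagen I against plastic (25.0% in all, background 6.12%). On Matrigel against plastic 2 rose and 2 fell (33.3% in all, background 10.4%). Stc2, a secreted glycoprotein hormone gene known to be induced in ER stress, had the largest difference of the list: 10.65, 10.78, 10.29 and 10.28 on plastic, 7.73, 8.19 and 8.10 on collagen I and 5.81 and 7.54 on Matrigel. It was 5.61-fold lower on collagen I (-2.49 ± 0.35, adjusted p = 0.00459) and 14.1-fold lower on Matrigel (-3.82 ± 0.40, adjusted p = 0.00116), and both calls held in all 20 alternative settings. The fold on Matrigel was 7.76 without Matrigel replicate 1 and 25.8 without Matrigel replicate 2. Cebpb, a C/EBP factor that pairs with ATF4, gave 8.53, 8.54, 8.61 and 8.78 on plastic, 9.17, 9.06 and 9.01 on collagen I and 8.95 on both Matrigel arrays. It rose on collagen I (0.47 ± 0.08, adjusted p = 0.00962, kept in all 20 settings) and on Matrigel (0.33 ± 0.09, adjusted p = 0.0477, lost in 13 of 20).

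Atf3, a stress-induced factor downstream of ATF4, rose on collagen I by 1.12 ± 0.26 (adjusted p = 0.0377, lost in 7 of 20 settings). On Matrigel Ddit4, an inhibitor of mTORC1, rose by 1.46 ± 0.37 (adjusted p = 0.0390, lost in 10 of 20) and Jdp2, an AP-1 repressor, fell by 0.55 on the log2 scale (adjusted p = 0.0195, lost without either Matrigel array). With the letter as a replicate block the count of 3 on collagen I became 6, adding Ddit4 (1.18, adjusted p = 0.00367), Nupr1 (0.61, adjusted p = 0.0385) and Atf5 (-0.46, adjusted p = 0.0309).

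Of 19 further ER folding genes 1 rose and 2 fell on collagen I (15.8%, background 6.12%) and 3 fell on Matrigel (15.8%, background 10.4%). Their median was 0.00 on collagen I and -0.19 on Matrigel, where 17 of the 19 lay below 0. Ero1a, the oxidase that recharges disulfide isomerases, was 1 of the 2 that fell on collagen I (-0.62 ± 0.15, adjusted p = 0.0466). Its call was lost in 10 of 20 settings (adjusted p up to 0.146), among them leaving out any single collagen I or plastic array. With the letter as a replicate block it was lost too (-0.61, adjusted p = 0.0845). Erp29, an ER folding assistant, fell on both, by 0.51 and 0.47 on the log2 scale (adjusted p = 0.00813 and 0.0147), the second call being lost without Matrigel replicate 1. Of 26 genes of translocation, glycosylation, degradation and trafficking 0 passed limma's test on collagen I, 2 having an unadjusted p under 0.05 (2763 of all 14506 genes). On Matrigel 1 of the 26 fell (3.85%, background for falls 5.85%), and 21 lay below 0 with a median of -0.16. Of 14 further regulators Creb3, an ER-anchored transcription factor, fell on Matrigel (-0.56 ± 0.06, adjusted p = 0.00144, kept in all 20 settings), and Eif2ak2, the RNA-activated kinase PKR, fell on both coatings, by 0.78 and 1.14 on the log2 scale (adjusted p = 0.0196 and 0.00512). The second value of Eif2ak2 was lost without Matrigel replicate 1 (adjusted p = 0.0516) and the first without any of 4 single arrays.

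The cytosolic and mitochondrial heat shock proteins, a separate stress system read for comparison, had medians of -0.01 on collagen I and -0.07 on Matrigel. In the test 2 and 3 of 14 fell (14.3% and 21.4%, background for falls 3.17% and 5.85%). Among them Cryab, the small heat shock protein alpha-B crystallin, had the largest difference of all the pathway lists read: 9.79, 10.30, 9.35 and 10.29 on plastic, 5.52, 7.65 and 7.14 on collagen I and 5.78 and 5.13 on Matrigel. It was 8.96-fold lower on collagen I (-3.16 ± 0.48, adjusted p = 0.00596) and 22.3-fold lower on Matrigel (-4.48 ± 0.54, adjusted p = 0.00199), and both calls held in all 20 alternative settings, with differences of -2.54 to -3.60 and -3.86 to -4.80.

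**Figure D4:**
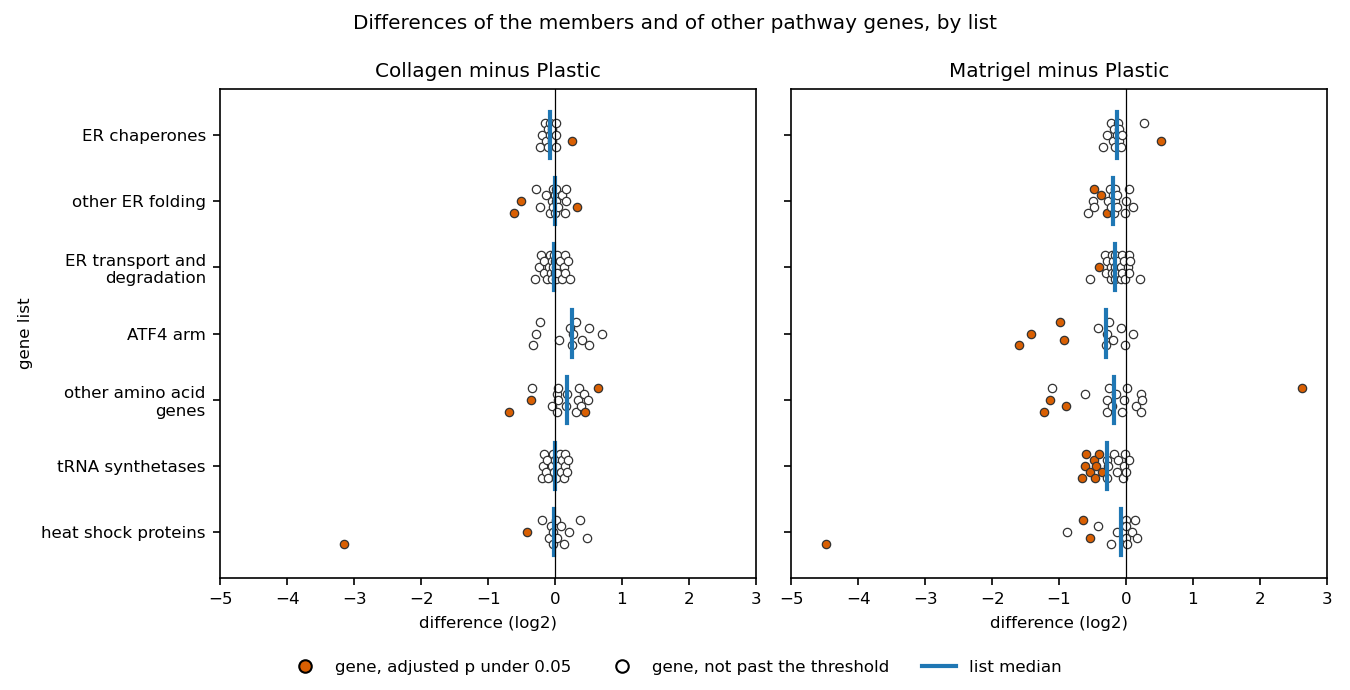
Differences from plastic in mean log2 expression of each gene (points) and the median of each list (lines), for the chaperones and the ATF4 arm among the 35 genes and for 5 further lists; filled points had an adjusted p under 0.05. On Matrigel the filled points of the ATF4 arm and of the tRNA synthetases all lie below 0, whereas the ER chaperones stay close to 0 on both coatings.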

How the data were processed

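The values are log2 expression levels per probe set entry as the authors deposited them, made with RMA per the submitters' processing notes; no version or build of it is named in the labels. Nothing was normalized again. Of 29215 entries, 15310 had exactly 1 gene symbol in the array's probe table, 323 several and 13582 none; the entry with the highest mean was kept per gene, giving 14506 genes. Array medians lay between 4.08 and 4.18.

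The model, in limma 3.58.1 (R 4.3.3), took all 9 arrays with a mean for each surface, leaving 6 residual degrees of freedom, with Benjamini-Hochberg adjustment within each comparison, two-sided; the script was tested on simulated data. The members and lists were chosen with earlier results of these data known. Members past the threshold and 9 fixed genes (Ern1 unmeasured) are given array by array; other lists name up to 4 genes by p, and the text prints a part of them. Same-letter collagen I and plastic arrays deviated together (r = 0.196, 0.234 and 0.269 over all genes). Those of different letters ran from -0.243 to 0.243, the highest being collagen I replicate 1 with plastic replicate 3, so the pairing is not certain. The blocked fit used the letter of all 9 arrays and left 3 residual degrees of freedom. The alternatives were 19 planned settings and 1 chosen after seeing the data (re-centring over all entries), besides a minimum difference of 2-fold.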

Additional observations from a re-analysis of the deposited data

Results flagged for a closer look

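On plastic, the surface with 4 arrays, Herpud1 on replicate 2 was 7.41 while the other plastic arrays lay at 7.53 to 7.54. Atf6 on the same array was 8.21 while the others were all at 8.23. In both cases the gap made up nearly the whole range of the group, though it was small on the log2 scale. They were 2 of 32 members examined in this way, and chance sets apart about 1 group in 20.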

How the results depend on the processing

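No call of a member changed direction in any of these settings. On collagen I against plastic the count of 1 member became 2 when arrays were re-centred on their median, quantile normalized again, filtered on low levels or weighted, or with the letter as a random block (Dnajb9 and Ppp1r15a in each), and 2 with the letter as a fixed replicate block (Atf4 and Trib3). It was 0 with every entry tested, with trend and robust moderation, with re-centring over all entries and with a 2-fold minimum, and 0 to 1 with 1 array left out. The 888 genes became 316 with a 2-fold minimum and 552 to 870 without 1 array. On Matrigel against plastic the 5 members became 2 with a 2-fold minimum and 2 to 6 without 1 array, and the 1504 genes 431 and 759 to 1461. On Matrigel against collagen I the 3 members became 0 with only these groups in the fit and 0 to 3 without 1 array. Its 387 genes became 257 with array weights, 66 with the replicate block, 0 with only these groups, 98 with a 2-fold minimum and 68 to 352 without 1 array.

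Same-letter Matrigel and plastic arrays gave r = -0.131 for A and 0.406 for S. With 2 Matrigel arrays, whose deviations mirror each other, this check cannot settle whether they pair. The replicate block nevertheless used the letter of every array, Matrigel included, so its Matrigel results rest on that unsettled pairing. Under the replicate block the Matrigel comparisons gained Sdf2l1 against plastic (-0.49, adjusted p = 0.0392) and Atf4 (-1.03, 0.0493) and Phgdh (-1.56, 0.0335) against collagen I, and lost Slc7a5 (-0.71, 0.187). Re-centring over all entries turned the split of genes on Matrigel against plastic from 655 higher and 849 lower to 512 and 1036. The causes were not tested.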
